A study of Gallus gallus with 8 samples.

Results

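Nrf2 binding on chromosome 2 of the chicken (Gallus gallus) was described from CUT&Tag peak lists of broiler liver. In CUT&Tag an antibody guides a transposase that cuts and tags DNA beside the bound protein, and a peak is a stretch where such fragments pile up. All peaks that 8 lists place on chromosome 2 of the galGal6 build were taken and merged into regions where they overlapped or touched. This gave 3734 regions from 7455 peaks, out of 30246 regions and 66669 peaks over the whole genome, or 12.3% of the regions and 11.2% of the peaks.

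The lists belong to 2 groups of 4, named HT and PT in the sample titles. HT livers are labelled with high temperature as the treatment and described as "High". PT livers are labelled with phloretin, a polyphenol of apples, as the treatment, but are described as "Normal", and the treatment protocol gives high temperature for all 8 samples. What PT birds received therefore cannot be told from the labels, and HT is set against PT by name only. The sources used here give neither age, sex nor dose, and do not say that samples were from separate birds. A p-value therefore measures only the spread between these lists, which may be technical.

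Nrf2 is a transcription factor that the adaptor Keap1 normally hands over for degradation. Oxidative or electrophilic stress frees it to enter the nucleus, where it pairs with a small Maf protein, binds antioxidant response elements and switches on genes for glutathione synthesis, quinone reduction and iron and haem handling. In liver it is known as a main regulator of detoxification. Chromosome 2 is among the largest chromosomes of the chicken, the macrochromosomes, which carry fewer genes per length than the microchromosomes. Genes and sequences at the regions are not given, because neither an annotation nor a genome of galGal6 was used here.

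Lists of a group shared many peaks to the base, so they cannot be treated as independent. The tests and SDs in this report still take each list as 1 unit. Their p-values and SDs therefore describe these lists only. On chromosome 2 the same first and last base was found in 61.3% to 78.5% of the peaks compared between 2 HT lists and in 61.7% to 83.9% of those compared between 2 PT lists (6 pairs each), where both lists had 1 peak in the region. Between an HT and a PT list, 0 or 1 of 76 to 92 peaks compared had identical ends (16 pairs). A peak with both ends recurring in another list made up 39.7% to 69.6% of the chromosome 2 peaks of an HT list and 33.3% to 74.6% of those of a PT list. Where a result below rests on such peaks, its value without them is given too if one was computed. That setting was chosen after the data were seen. It takes out the peaks on which lists agree to the base, so it lowers agreement between lists by construction.

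Chromosome 2 carried more peaks in the HT lists than in the PT lists. HT lists 1 to 4 held 1061, 1156, 976 and 1254 peaks there, against 745, 556, 893 and 814 in PT lists 1 to 4. The lowest HT list lay above the highest PT list. The means were 1111.75 ± 120.0 and 752 ± 144 peaks (SD, n = 4 lists each), a ratio of 1.48. Peaks covered 0.583 ± 0.0592 Mb of the chromosome in HT and 0.378 ± 0.0690 Mb in PT. For each difference the 2-sided exact permutation p was 0.0286, the smallest that 4 against 4 lists allow, with a Benjamini-Hochberg adjusted p of 0.0286 over 34 chromosomes. The same call was made for 97.1% of the chromosomes and the opposite one for 2.94%, for peaks and for covered length alike, so the direction on chromosome 2 is that of nearly the whole genome. When every list was limited to its 5120 highest-scoring peaks, the difference turned to -71.5 peaks (exact permutation p = 0.0286, adjusted p = 0.0511). That in covered length turned to -0.0199 Mb (exact permutation p = 0.0286, adjusted p = 0.0463), a call in the opposite direction. Such a call needs at least 57.1% of the chromosomes at the smallest p, and the share called is not given here. Lists are then equally long, so the difference in peaks is one of share. This cut takes most from the longer HT lists. The strongest 50% of each list gave 158.5 peaks and 0.0977 Mb more in HT (adjusted p = 0.0324 and 0.0294, exact permutation test). Leaving out HT list 4 gave 312.3 peaks and leaving out PT list 2 gave 294.4 peaks, each with an adjusted exact permutation p of 0.0571. In both cases the lowest HT list still lay above the highest PT list. With groups of unequal size, lists that are fully apart need not reach the smallest p. These p-values therefore do not show a weaker difference. Without peaks whose ends recur in another list the lists held 520.5 ± 208 and 384 ± 184 peaks, a difference of 136.5 (exact permutation p = 0.371, adjusted p = 0.468), and the difference in covered length was 0.0918 Mb (adjusted p = 0.324).

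As a share of its list, chromosome 2 was somewhat lower in HT. It took 10.8%, 10.8%, 10.3% and 11.3% of the peaks of HT lists 1 to 4, against 11.5%, 10.9%, 12.2% and 12.3% in PT lists 1 to 4. The lists of the groups overlapped, and the difference of -0.915 points did not pass the test (exact permutation p = 0.0571, adjusted p = 0.0883, with 0.0% of chromosomes called in either direction). Without peaks whose ends recur it was -1.78 points (adjusted p = 0.0971, exact permutation test). Chromosomes 1 and 3 are nearest to it in size. Of the peaks on chromosomes 1 and 2 together, 41.2 ± 0.759% lay on chromosome 2 in HT and 38.5 ± 1.32% in PT (SD, n = 4 lists each), and every HT list was above every PT list. That difference of 2.76 points had an exact permutation p of 0.0286 and an adjusted p of 0.0496 over 33 such comparisons, of which 6.06% were called in this direction and 51.5% in the other, so against most of the other chromosomes chromosome 2 took a smaller share in HT. The difference against chromosome 1 was 0.191 points (adjusted p = 0.943 in the exact permutation test) without peaks whose ends recur. Without HT list 1, 2, 3 and 4 it was 2.81, 2.70, 3.07 and 2.47 points, and without PT list 3 it was 3.16 points. The adjusted exact permutation p was then 0.0629, 0.0943, 0.0589, 0.0898 and 0.0555. Before adjustment it was 0.0286 without HT list 1, HT list 3 or PT list 3, and 0.0571 without HT list 2 or 4. Every remaining HT list was still above every remaining PT list. With groups of unequal size such lists need not reach the smallest p. Against chromosome 3 the share was 59.9 ± 0.888% in HT and 60.6 ± 1.16% in PT, a difference of -0.668 points (exact permutation p = 0.4, adjusted p = 0.455), which turned to 1.70 points without peaks whose ends recur (adjusted p = 0.347).

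The HT and PT lists covered mostly different bases of the chromosome. The Jaccard index is the number of bases that both lists cover divided by the number that either covers. It averaged 0.420 within HT (0.366 to 0.560, 6 pairs) and 0.387 within PT (0.283 to 0.533, 6 pairs), against 0.0621 between the groups (0.0515 to 0.0705, 16 pairs). HT lists 1 and 3 were the most alike, and PT lists 3 and 4 the least alike of the pairs within a group. Without peaks whose ends recur in another list, the mean within groups exceeded that between groups by 0.0462, against 0.342 with all peaks. The setting takes out peaks shared to the base, so a lower value follows from it. No test was made of the difference between the means.

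**Figure D1:**
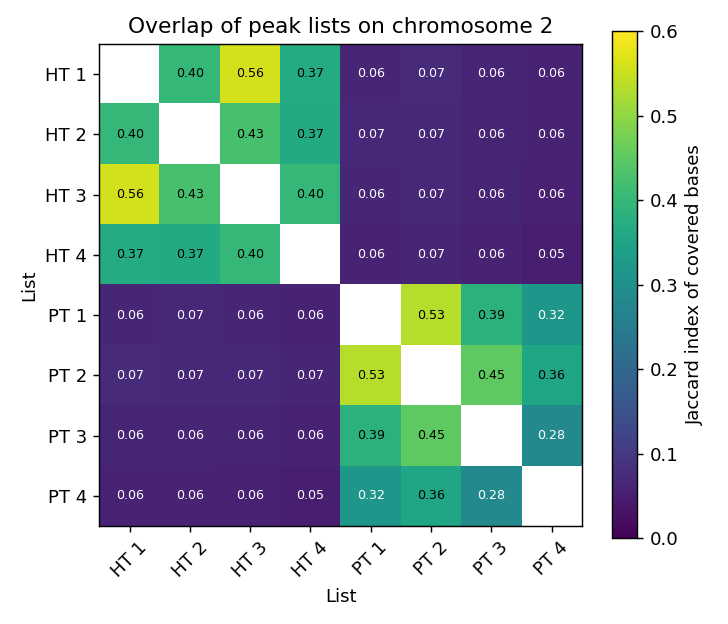
Jaccard index of the bases covered on chromosome 2 for every pair of the 8 peak lists, HT lists first and PT lists after them, with the index printed in each cell. Pairs within a group range from 0.283 to 0.560, and pairs between the groups from 0.0515 to 0.0705.

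Peak counts over the 150 windows of 1 Mb along the chromosome were more alike within the groups than between them. Peaks shared to the base enter these counts, and values without such peaks are not given. The Spearman correlation of peak counts per window was 0.636 to 0.770 between HT lists, 0.514 to 0.745 between PT lists and 0.0952 to 0.420 between an HT and a PT list. These describe windows of the same lists and are no test. The depth of the lists is unknown, and the base composition of the windows was not examined.

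Along the chromosome, the HT lists had the higher mean number of peaks in each of the 15 parts of 10 Mb. The difference passed the test in 9 of the 15 parts (adjusted p = 0.0392 in each, over 122 parts of the genome, exact permutation test), all with more peaks in HT. The background was 72.1% of the 122 parts called in this direction and 0.82% in the other, so 9 of 15 parts is a share near that of the genome. In these 9 parts the HT and PT lists did not overlap. The highest ratio was in part 12 (110 to 120 Mb), with 70, 59, 53 and 80 peaks in HT lists 1 to 4 and 32, 26, 39 and 46 in PT lists 1 to 4, a ratio of 1.83. Part 1 (the first 10 Mb) followed with 113.75 ± 13.6 peaks in HT and 64 ± 12.8 in PT (SD, n = 4 lists each), a ratio of 1.78. The lowest ratios were 1.12 in part 3 (20 to 30 Mb), where HT lists had 39 to 50 and PT lists 27 to 53 peaks, and 1.15 in part 11 (100 to 110 Mb), where HT lists had 48 to 64 and PT lists 33 to 64 peaks. Neither passed the test, and the lists of the groups overlapped in both. Of the 15 parts, 0 passed with equally long lists, without HT list 4 or without peaks whose ends recur in another list. With equally long lists, parts at the smallest p of 0.0286 had an adjusted p of 0.0665 (exact permutation test). Without HT list 4 that adjusted p was 0.0536. In both settings no part of any chromosome could pass, so the 0 is not particular to chromosome 2. Without PT list 2, 5 parts passed. The share of the genome's parts that passed without PT list 2 or without recurring ends is not given here.

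Both ends of the chromosome were richest in peaks. Part 15, from 140 Mb to the last peak at 149.7 Mb, held 132.25 ± 9.03 peaks per HT list and 96 ± 12.1 per PT list, against 45 to 82.5 in HT and 35.75 to 54.25 in PT for the means of parts 2 to 14. The outer 10 Mb at either end took 22.8 ± 1.54% of the chromosome 2 peaks in HT and 21.7 ± 1.64% in PT (SD, n = 4 lists each). This difference of 1.08 points did not pass the test (exact permutation p = 0.371, adjusted p = 0.514 over 6 long chromosomes, with 0.0% called in either direction). In lists of equal length it was 2.96 points (adjusted p = 0.0571 in the same exact test), and without peaks whose ends recur 5.01 points (adjusted p = 0.400).

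As shares of the whole list, 0 of the 15 parts passed the adjusted threshold in the exact permutation test, and 4 parts had an unadjusted p of 0.0286. Over the genome 0.0% of the parts passed in either direction. All 4 were lower in HT and did not overlap with PT. The share of the genome's parts with that unadjusted p is not given here. These 4 are therefore not shown to stand out from the genome. They were part 3, with 0.437% of the peaks of a list in HT and 0.622% in PT, part 4 (30 to 40 Mb), with 0.593% and 0.786%, part 9 (80 to 90 Mb), with 0.647% and 0.737%, and part 11, with 0.552% and 0.767%. The adjusted p of each was 0.0742 in the exact permutation test. The stretch from 20 to 40 Mb and that from 100 to 110 Mb therefore had the lowest HT to PT ratios on both scales, without a call.

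**Figure D2:**
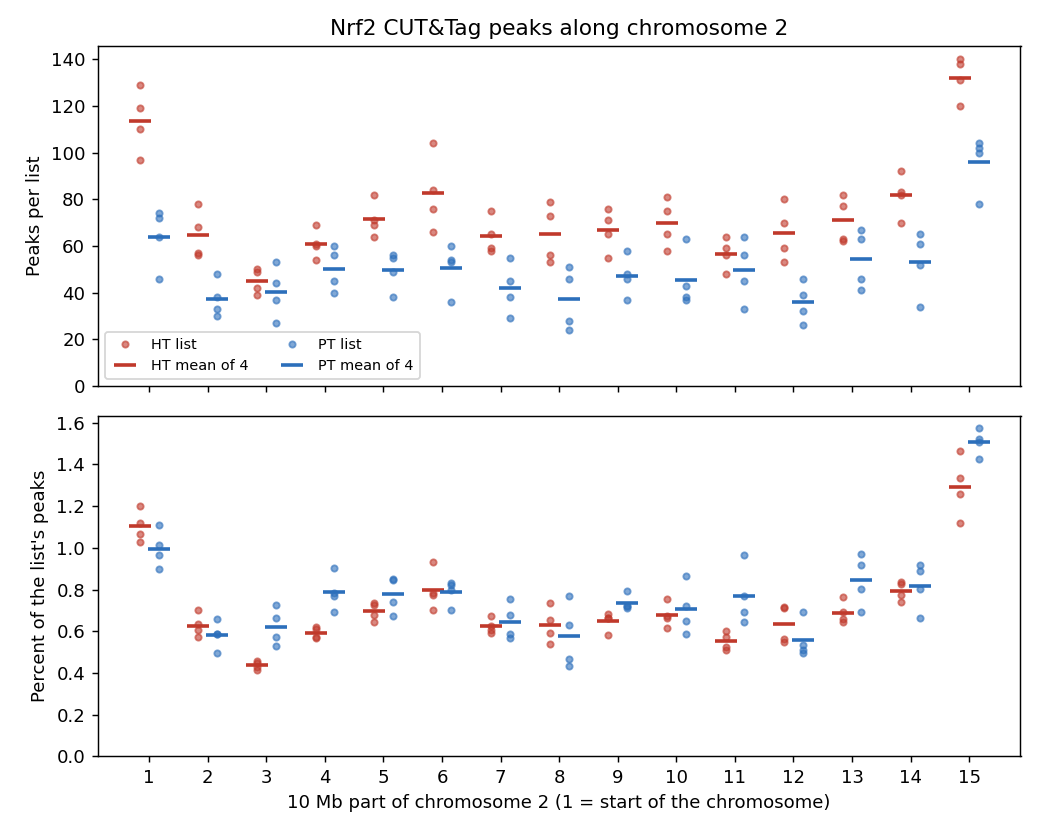
Peaks per list (upper panel) and percent of the peaks of the whole list (lower panel) in each 10 Mb part of chromosome 2, numbered from the start of the chromosome, with a point per list and a bar for the mean of 4 lists, HT in red and PT in blue. HT means are above PT means in all 15 parts of the upper panel and in 5 of the lower panel, and parts 1 and 15 are the richest in both groups.

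Most regions of chromosome 2 were found in 1 list. Of the 3734 regions, 1257 were held by a single HT list and 1059 by a single PT list, together 62.0% (over the genome 55.9%). The number of regions that a list held alone varied widely within the groups, with 228, 389, 143 and 497 in HT lists 1 to 4 and 232, 73, 375 and 379 in PT lists 1 to 4. At the other end, 445 regions (11.9%) were held by all 4 HT lists and no PT list, against 14% (4234) of all regions of the genome. A further 247 regions (6.61%) were common to the 4 PT lists and absent from HT, against 6.83% over the genome. All 8 lists held 50 regions (1.34%), against 2.41%. These shares are counts of regions and were not tested against the genome.

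The excess of regions found in every HT list was not seen in lists of equal length. There were then 176 such HT regions and 193 such PT regions. In the strongest 50% of each list there were 199 and 122. Without peaks whose ends recur in another list 16 and 1 were left, and 3 regions in all 8 lists. Most of this fall follows from the setting itself. Among the 445 HT regions 432, and among the 247 PT regions 246, had ends shared by at least 2 lists. Ends were identical across the 4 HT lists in 256 of the 445 HT regions (57.5%), and across the 4 PT lists in 158 of the 247 PT regions (64.0%). The ratio of all such HT to all such PT regions was 1.80 on chromosome 2, 1.44 on chromosome 1 and 1.94 on chromosome 3, against 2.05 over the genome. Along chromosome 2 it ran from 1.2 in part 11, with 18 against 15 regions, to 2.55 in part 1, with 56 against 22 regions.

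The ends of the chromosome held similar numbers of regions and differed in how often the groups met. The first 10 Mb held 350 regions and the last 10 Mb 362. A peak from both groups was found in 9 of those in the first 10 Mb (2.57%) and in 49 of those in the last 10 Mb (13.5%), against 127 of the 3022 regions between (4.20%). Regions in all 8 lists numbered 1 in the first 10 Mb, 19 in the last 10 Mb and 30 between. The contrast showed in every list, but regions in all 8 lists enter the share of each list. Lists of a group also share many peaks to the base, so their likeness is no independent support. In the last 10 Mb, 26.8%, 29.4%, 26.6% and 26.9% of the peaks of HT lists 1 to 4 lay in a region that a PT list also held, and 42.3%, 49.4%, 40.7% and 41.6% of the peaks of PT lists 1 to 4 in a region that an HT list also held. In the first 10 Mb these shares were 4.55% to 5.43% in HT and 4.05% to 10.9% in PT.

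This contrast was noticed in the data and was not tested. In lists of equal length the groups met in 4 of 215 regions of the first and 26 of 226 of the last 10 Mb, and without peaks whose ends recur in 4 of 272 and 18 of 287. Of the 19 regions in all 8 lists, 11 fell in the window from 142 to 143 Mb. Without that window, 33 of 306 regions of the last 10 Mb (10.8%) were met by both groups and 8 were in all 8 lists. Chromosome 1 had the opposite order, with 42 of 340 regions (12.4%) in its first 10 Mb met by both groups and 21 of 373 (5.63%) in its last. On chromosome 3 these were 9 of 258 (3.49%) and 17 of 356 (4.78%).

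**Figure D3:**
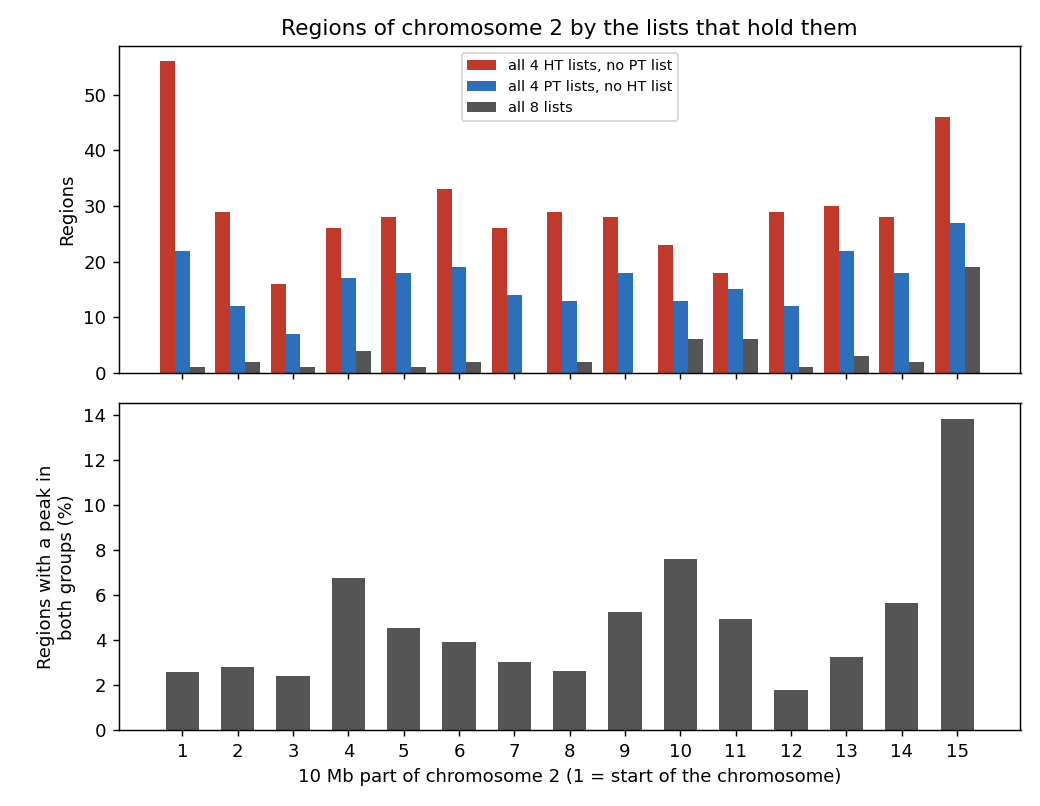
Number of regions of chromosome 2 held by all 4 HT lists and no PT list, by all 4 PT lists and no HT list and by all 8 lists (upper panel), and percent of regions with a peak from both groups (lower panel), in 10 Mb parts numbered from the start of the chromosome. Part 15 holds 19 of the 50 regions in all 8 lists and has 13.8% of its regions met by both groups, against 2.57% in part 1.

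Peaks on chromosome 2 were slightly wider in HT by the median. It was 494, 488.5, 489 and 492 bp in HT lists 1 to 4, against 458, 464, 473 and 478 bp in PT lists 1 to 4, with no overlap of the groups. How many other chromosomes had no such overlap is not given here. The difference of 22.6 bp had an exact permutation p of 0.0286 and an adjusted p of 0.121 over 34 chromosomes, of which 0.0% were called in either direction, so it did not pass. In lists of equal length it turned to -29.1 bp (exact permutation p = 0.0571, adjusted p = 0.114), and without peaks whose ends recur it was 18.9 bp (adjusted p = 0.324). Narrow peaks were a smaller part of the HT lists, with 2.87% to 4.10% of the chromosome 2 peaks under 260 bp, against 4.18% to 8.45% in PT. Their numbers overlapped, with 36 to 40 per HT list and 34 to 56 per PT list, and HT lists are longer. The difference in percent was not tested, and values for other chromosomes are not given. Peaks over 1000 bp made up 3.996% to 4.24% of the chromosome 2 peaks of HT lists and 2.09% to 4.14% of those of PT lists, and the groups overlapped.

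The score that the authors' caller gave each peak was used only to rank the peaks of a list. As a percentile of the whole list, where 100 is the highest score, the median chromosome 2 peak stood at 47.6 ± 1.70 in HT and 49.0 ± 0.742 in PT (SD, n = 4 lists each), just under the middle. Of the chromosome 2 peaks, 5.56% to 6.92% in HT lists and 7.99% to 9.71% in PT lists stood above the 90th percentile of their list, fewer than the 10% of all peaks. The numbers of such peaks overlapped, with 59 to 82 per HT list and 54 to 76 per PT list. The groups were not tested on this, and the percentile refers to lists of unequal length. Rank and width were not independent, and the relation was not a steady one. Over all chromosome 2 peaks of a list the Spearman correlation of width with score percentile was -0.336 to -0.292 in HT and -0.436 to -0.391 in PT. Among those of up to 600 bp it was -0.588 to -0.568 in HT lists and -0.578 to -0.517 in PT lists, over 857 to 1117 and 484 to 796 peaks. Peaks under 260 bp had a median percentile of 89.5 to 90.7 in HT and 91.2 to 93.6 in PT, and those of 260 to 1000 bp one of 42.9 to 46.9 in HT and 44.8 to 46.7 in PT. Peaks over 1000 bp also ranked above these, with 83.4 to 87.2 in HT and 64.5 to 93.5 in PT. The sources used here do not say how duplicate reads were treated.

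**Figure D4:**
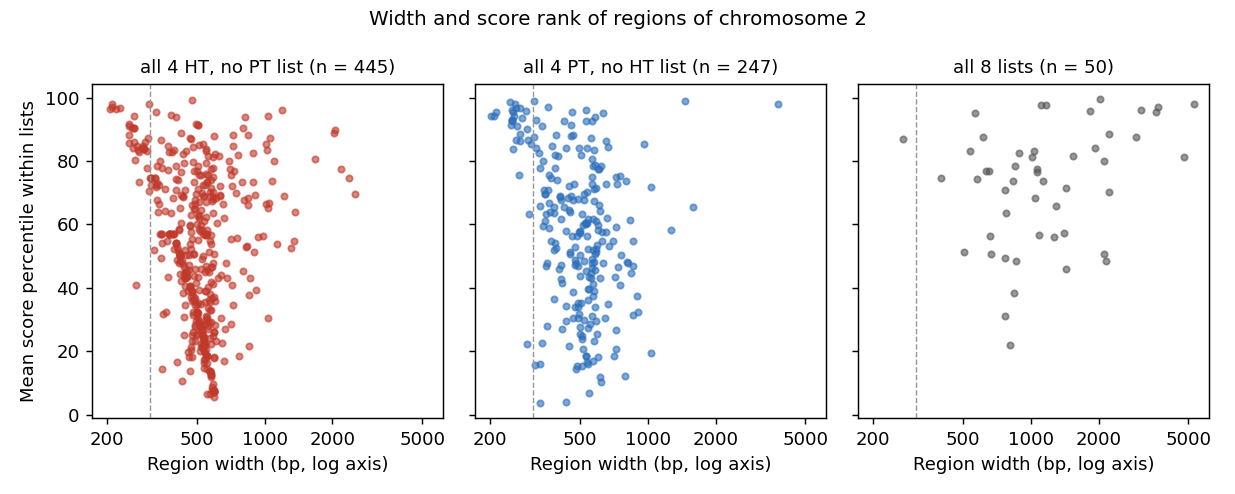
Width of each region (log axis, bp) against its mean score percentile over the lists that hold it, for regions in all 4 HT and no PT list (left), all 4 PT and no HT list (middle) and all 8 lists (right), with a dashed line at 310 bp. Of the regions above the 90th percentile, 12 of 23 on the left, 18 of 32 in the middle and 0 of 9 on the right are narrower than 310 bp.

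Regions in all 4 HT and no PT list had a median width of 513 bp and a median score percentile of 53.7. The highest rank among them fell to chr2:14507538-14508015 (galGal6), 478 bp wide. Its peaks scored 355.03, 370.05, 315.34 and 282.34 in HT lists 1 to 4, which placed them between the 99.28 and the 99.43 percentile of their lists. Next came chr2:138985407-138985617, only 211 bp wide, with scores of 164.26 to 171.12 and the same ends in all 4 HT lists. The third was chr2:134071485-134071792, 308 bp wide, with scores of 135.94 to 206.55. Chr2:15446745-15446954 and chr2:15617218-15617446, of 210 and 229 bp, had the same ends in all 4 HT lists.

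Of the 10 such regions with the highest mean percentile, 6 were under 310 bp wide and 5 had identical ends in all 4 HT lists. The remaining 5 were chr2:79970956-79971175, chr2:124888571-124888776, chr2:142765984-142767183, chr2:17466069-17466399 and chr2:54194515-54194898. They spanned 206 to 1200 bp and had mean percentiles of 94.6 to 96.5. Over all 445 regions, 7.19% were under 310 bp, against 52.2% of the 23 above the 90th percentile. When peaks under 260 bp were left out, 5 of the 10 were held by no list and chr2:54194515-54194898 by 1 list.

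Regions in all 4 PT and no HT list had a median width of 503 bp and a median percentile of 59.5. First was chr2:73882573-73884035, 1463 bp wide, which scored 332.14, 322.67, 327.66 and 335.82 in PT lists 1 to 4 with identical ends in all 4. Only 931 bp beyond it lay chr2:73884967-73888750, 3784 bp wide, the widest peak of chromosome 2 in every PT list, with scores of 197.98 to 203.28 and again identical ends in all 4. The HT lists held neither. Between them in rank stood chr2:61851773-61852086, 314 bp wide with scores of 275.87 to 294, and chr2:11630819-11631063, 245 bp wide with scores of 245.03 to 259.93.

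The other 6 PT regions by this rule were chr2:46936697-46936954, chr2:82389584-82389945, chr2:11160213-11160472, chr2:93694802-93695073, chr2:38077009-38077541 and chr2:83787415-83787664. They were 250 to 533 bp wide, with mean percentiles of 96.0 to 97.9. In 7 of the 10 all 4 PT lists gave the same ends, and 5 of the 10 were under 310 bp. PT list 4 gave chr2:38077009-38077541 a score of 92.8, against 192.05, 207.93 and 207.93 in PT lists 1 to 3. When peaks under 260 bp were left out, 3 of the 10 were held by no list, and chr2:93694802-93695073 and chr2:38077009-38077541 by 1 list each. All 10 lay between 11.2 and 93.7 Mb, and the 10 HT regions ran from 14.5 to 142.8 Mb. The full sets did not differ in this way. The last 10 Mb held 28 of all 247 such PT regions (11.3%) and 50 of all 445 such HT regions (11.2%).

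The 50 regions in all 8 lists were wider, with a median of 1065.5 bp against 493.5 bp over all regions of the chromosome. Merging peaks of 8 lists itself makes a region wider. Their median percentile was 82.4 in HT and 71.4 in PT. The HT lists are longer, and a peak at the same place from the top of its list has a higher percentile in a longer list. Counted from the highest score, the median place was 1805 in HT and 1814 in PT. The region with the highest mean rank was chr2:97528280-97530306, 2027 bp wide. It scored 634.31, 638.58, 611.42 and 620 in HT lists 1 to 4, and 502.43, 502.55, 513.44 and 509.26 in PT lists 1 to 4, the highest score of chromosome 2 in every list. Scores of different lists are not known to be on a shared scale, so lists are compared by rank only. The percentiles were 99.65 to 99.72 in HT and 99.43 to 99.62 in PT, and the mean places from the top 32.25 in HT and 28.75 in PT.

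It did not stand alone. With chr2:97524635-97527724 and chr2:97531506-97532619 it formed a chain of 3 regions in all 8 lists within 7.985 kb. The last of these ranked lower in HT, at percentiles of 96.5 to 97.2, than in PT, at 98.4 to 98.9. A second chain of 3, chr2:105825628-105829297, chr2:105832011-105834243 and chr2:105838090-105839930, lay within 14.3 kb. When a list had to cover 50% of a region to hold it, 6 lists held the last of these, and the chain of 3 did not remain. Its middle region ranked at 97.5 to 97.7 in HT lists and at 57.3 to 90.9 in PT lists. In all, 25 of the 50 regions belonged to 8 chains with neighbours less than 20 kb apart, and the other 25 stood alone.

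The longest chains lay near the end of the chromosome. From chr2:142707419 to 142752088, 6 regions in all 8 lists followed each other within 44.7 kb, and from 142786072 to 142815134 another 5 within 29.1 kb. The stretch of 5 includes chr2:142806961-142808129, which ranked at 98.8 to 99.1 in HT and 95.3 to 97.3 in PT and had the same ends in all 4 lists of each group. Of the remaining regions that the rule names, chr2:142719436-142720002 lay in the stretch of 6, and chr2:119891457-119895060 stood alone.

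The widest region of the chromosome, chr2:52140757-52146035, was also in all 8 lists. It was a single peak in each HT list, with scores of 259.94, 289.8, 244.61 and 286.39 in HT lists 1 to 4. Each PT list split it into 2 peaks, the higher of which scored 129.71, 152.79, 198.79 and 182.55. Its percentile was 98.9 to 99.3 in HT and 95.7 to 98.3 in PT. A short way past it began the longest stretch without a peak in any list, 586.7 kb from chr2:52151218 to 52737944. The next longest were 358.4 kb from chr2:113534280 to 113892708 and 343.9 kb from chr2:88968325 to 89312218, against a median of 25.8 kb between neighbouring regions.

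Second in width was chr2:35735919-35740711, 4793 bp, with a mean percentile of 96.9 in HT and 65.9 in PT. The third, chr2:119934339-119938157 (3819 bp), was held by HT lists 2, 3 and 4 and PT lists 1, 2 and 3. Over the 50 regions in all 8 lists, the percentile was higher in HT in 32 and in PT in 18, and the median difference was 7.24 points. By the place from the top of the list, 26 stood nearer to it in HT and 24 in PT, so the excess in HT depends on the scale of the ranks. The difference in percentile reached 81.9 points at chr2:144074075-144075347, where the mean percentile was 97.0 in HT and 15.1 in PT, and -39.1 points at chr2:148934916-148935687, with 29.8 in HT and 68.9 in PT. Across the 50 regions the Spearman correlation of the HT and PT mean percentiles was 0.421, given as a description since all regions come from the same 8 lists.

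Each of the 150 windows of 1 Mb held at least 10 regions, with a median of 24. The window richest in regions was the first, with 83, followed by the last (149 to 150 Mb) with 61 and the window from 53 to 54 Mb with 57. The first window held 27 to 32 peaks per HT list and 13 to 22 per PT list, and the last 27 to 37 and 19 to 24. The window from 53 to 54 Mb differed from both ends in that the groups overlapped, with 10 to 14 peaks per HT list and 10 to 15 per PT list. Of its 57 regions, 39 were in 1 list, 4 in all 4 HT lists only, 8 in all 4 PT lists only and 0 in all 8 lists.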

How the data were processed

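The 8 deposited peak lists, without header lines, hold in 5 columns a peak's chromosome, its start and end, its name and the authors' caller score, whose scale is not stated. Scores ran from 40 to 3100. The submitters' processing notes list galGal6 as the build and, as tools, Bowtie2 2.2.4 and cutadapt 1.9.2. MACS, a peak caller, stands at the start of the peak names. Its version and settings, the handling of duplicates, any control library and any pooling: not given in the sources used here. Read counts were not in the lists, so depth is unknown.

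Starts were raised by 1 to give 1-based positions. Regions were merged over all lists, and a list held a region with 1 bp. Peaks were assigned to parts by their midpoint. HT and PT means were tested by exact permutation, 2-sided, with 70 relabellings, and adjusted over all chromosomes, or over all 10 Mb parts with a mean of at least 5 peaks. The threshold was 0.05; an adjusted p can reach it only when at least 57.1% of the tests in a family have the smallest p. The code was tested on simulated lists.

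At a given place from the top, a percentile is higher in a longer list, so places from the top of each list were counted too, for regions in all 8 lists, after the data were seen. Named regions are the 10 per set with the highest mean score percentile, plus the 3 longest empty stretches, 3 fullest windows and 3 widest regions. The rank extremes of regions in all 8 lists and the chains were chosen after their values were seen. The chromosome, tests and lists were chosen with earlier results of these data known. The gene table at hand is of another assembly and was not used here. Computations used pandas 2.3.3 and numpy 2.4.6 under Python 3.11.15, and figures matplotlib 3.10.9.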

Additional observations from a re-analysis of the deposited data

Results flagged for a closer look

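In part 15 of chromosome 2 (140 to 150 Mb), PT list 2 had 78 peaks, far below the other PT lists, which had 100 to 104. In part 9 (80 to 90 Mb), PT list 3 had 0.794% of its peaks, above the 0.709% to 0.723% of the other PT lists. Both gaps exceeded the 95% critical value of Dixon's test for 4 values. The test was run on 72 groups of 4 values and 2 passed, where chance alone flags about 1 group in 20. PT list 2 is the shortest list, with 5120 peaks in all. As a share of the list, part 15 held 1.52% in PT list 2, within the 1.42% to 1.57% of the other PT lists.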

How the results depend on the processing

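Of 200 alternative values of the main results, 162 had the same direction and call as reported, or for counts lay within 1.5 times. For a result that was not called, the same call means only that it was again not called. Values without a test, such as the Jaccard difference, had to change by less than an SD. Of the 162, 111 came from leaving out a list, where 7 others lost their call and 2 moved. In the 7 that lost it, the remaining HT and PT lists still did not overlap. Lists of a group share many peaks to the base, so the 111 are no independent support. The difference against chromosome 1 lost its call when any single HT list or PT list 3 was left out. The other settings gave 51 that stayed the same, 16 that moved, 8 that lost their call and 5 that reversed. Causes of the exceptions were not tested unless the setting gives them. The strongest 50% of each list gave 3.56 points against chromosome 1 (adjusted p = 0.0589 in the exact permutation test) and 0 parts called. Parts at the smallest p then had an adjusted p of 0.0501 in that test, so no part of the genome could pass. This setting left 199 regions in every HT list only, 122 in every PT list only and 24 in all 8 lists. These are called HT-only, PT-only and common here. The difference in median percentile was 0.451. The same number of peaks per list gave -71.5 peaks, -0.0199 Mb (adjusted p = 0.0463 in the exact permutation test), -29.1 bp, 0 parts called, 176 HT-only and 29 common regions. Leaving out peaks under 260 bp gave 2.69 points against chromosome 1. A cover of 50% gave 29 common regions, parts of 20 Mb 4 calls of 8 parts, and the outer 5 Mb -0.218 points. Without peaks whose ends recur in another list the differences were 136.5 peaks, 0.0918 Mb, 0.191 points against chromosome 1 and 1.70 points against chromosome 3, with 0 parts called, 16 HT-only, 1 PT-only and 3 common regions and a Jaccard difference of 0.0462. Leaving out each list gave 294.4 to 406.75 peaks (adjusted p = 0.0571 without HT list 4 or PT list 2, exact permutation test). It gave 2.24 to 3.16 points against chromosome 1 and 0 to 9 parts called. Apart from what is said above, the shares of the genome's chromosomes and parts called in the alternative settings are not given here.

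Differences in single 10 Mb parts changed direction as follows. In lists of equal length they were -11, -12.25, -10, -5.5, -1, -6.5, -1, -6, -4.5, -13.75, -4.25 and -4.5 peaks in parts 3, 4, 5, 7, 8, 9, 10, 11, 12, 13, 14 and 15, and -0.0195 and -0.0879 points in parts 8 and 12. In the strongest 50% parts 2, 8 and 12 had -0.0202, -0.0372 and -0.0646 points, and without peaks under 260 bp part 6 had -0.00138 points. Without recurring ends parts 3, 4 and 11 had -3.5, -4.5 and -0.5 peaks, and parts 8, 9, 12, 14 and 15 had -0.0291, 0.0160, -0.210, 0.0506 and 0.179 points. Leaving out each list gave shares of -0.0368 to 0.0412 points in part 6, -0.0486 to 0.0137 in part 7, -0.0682 to 0.0241 in part 10 and -0.0762 to 0.00875 in part 14.

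With the replicate number as a block the differences stayed 359.75 peaks, 0.205 Mb and 2.76 points against chromosome 1, with 0 parts called. With 4 pairs an exact permutation by sign flips cannot go below p = 0.125, the value each of these had, and so carries no information on stability. No likeness between HT and PT lists of the same number was found. Deviations from the group means had correlations of -0.00398, 0.000907, 0.0117 and -0.00923, and the own number was the best match for 0 of 4 PT lists. Whether equal numbers mark a shared preparation was not tested. The depth of the libraries, on which list length may depend, is unknown.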
